A study of Mus musculus with 2 samples.

Results

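The cells described here are 196 liver endothelial cells of 1 adult Gimap5sph/+ mouse that carried the RNA of von Willebrand factor (Vwf). They were taken from the single-cell matrix of that mouse by raw counts of unique molecular identifiers (UMIs), each UMI standing for 1 captured RNA molecule. The quality limits were 500 or more genes detected in a cell, 1000 or more UMIs, and no more than 15% of UMIs from mitochondrial genes. A cell within them was taken as Vwf-positive with at least 2 UMIs of Vwf, at least 1 UMI of Pecam1 and Cdh5 together, at most 2 UMIs of Rspo3 and at most 2 UMIs of Mki67, Top2a, Cenpf and Birc5 together. These were 196 of the 6167 Gimap5sph/+ cells that passed the quality limits, or 3.18% (exact binomial 95% interval 2.75% to 3.65%), and of 12766 such cells in the series. They are set against 5589 cells of the same mouse with at least 3 UMIs of Clec4g and none of Vwf, called Clec4g-positive cells here. A further set, 494 Vwf-positive cells chosen by the same limits, came from the other mouse of the series, a Gimap5sph/sph homozygote.

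Both mice were adult C57BL/6 animals carrying the sph allele of Gimap5, a gene for a small GTPase of lymphocytes and endothelial cells, on both chromosomes in the homozygote and on 1 in the heterozygote. No animal without the allele is among the samples analysed here, and each genotype was 1 library. Liver cells were sorted for CD31, the endothelial surface protein encoded by Pecam1, and against DAPI, which enters dead cells, and CD45, which marks leukocytes. They were sequenced with the 10x 3′ chemistry. With 1 mouse per genotype there is no replicate check and no test. The intervals below are exact Poisson or binomial 95% intervals and cover counting error only.

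Most cells stood in the deposited matrices more than once. The Gimap5sph/sph matrix had 16386 columns but 8657 distinct barcode sequences, and the Gimap5sph/+ matrix had 13136 columns but 6745 distinct sequences, because 7729 and 6391 of them occurred with both of the suffixes 1 and 2. Columns with the same sequence were taken as repeat counts of 1 cell. The squared differences between them were 0.614 per count in Gimap5sph/sph and 0.479 in Gimap5sph/+, where independent draws from 1 cell give 1, against 14.3 and 7.3 between neighbouring barcodes. Each cell was therefore counted once, from its column with suffix 2, which left 8647 barcodes with 36105901 UMIs in Gimap5sph/sph and 6727 barcodes with 33060506 UMIs in Gimap5sph/+. Counting columns instead would have given 395 Vwf-positive columns in Gimap5sph/+, which are only 225 distinct barcodes. The 2 libraries had 17 barcode sequences in common, of which 0 were among the Vwf-positive cells of Gimap5sph/+.

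The smallest vessels of the liver lobule are sinusoids, lined by a thin, fenestrated endothelium that clears waste from the blood through scavenger and lectin receptors such as Stab2, Fcgr2b and Clec4g. Arteries and portal and central veins have instead a continuous endothelium on a basement membrane. Continuous endothelium makes most of the body's von Willebrand factor, the protein that tethers platelets and carries coagulation factor VIII, and stores it in Weibel-Palade bodies. Cd34, a sialomucin of continuous endothelium, is usually low in healthy sinusoids. On the GRCm38 build, Vwf lies on the forward strand of chromosome 6 (125546774 to 125686679), as does Gimap5 (48746197 to 48754210). Clec4g lies on the reverse strand of chromosome 8 (3707064 to 3720651) and Cd34 on the forward strand of chromosome 1 (194938819 to 194961279).

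The Vwf-positive cells were endothelial by the CD31 sort and by the rule, which asks for a UMI of Pecam1 or Cdh5. Most of them also carried the sinusoidal lectin Clec4g, so that the markers of large vessels and of sinusoids were counted in the same barcodes. Pecam1, the CD31 adhesion protein, was at 862 CPM (UMIs of the gene per 1000000 UMIs of the group) in Vwf-positive cells, against 702 CPM in Clec4g-positive cells. Cdh5, the cadherin of endothelial junctions, was at 731 CPM in Vwf-positive cells, against 873 CPM in Clec4g-positive cells. Cd34 was at 158 CPM (137 to 182) in Vwf-positive cells, against 22.1 CPM in Clec4g-positive cells, and had a UMI in 92 of the 196 Vwf-positive cells. Vwf itself, which the rule used, was at 848 CPM with a median of 4 UMIs per cell and a range of 2 to 24. Clec4g was at 1527 CPM (1461 to 1597) in Vwf-positive cells, against 3847 CPM (3825 to 3870) in Clec4g-positive cells, whose level the rule sets. Clec4g had 0 UMIs in 13 Vwf-positive cells, 1 or 2 in 23, 3 to 9 in 94 and 10 or more in 66, with a median of 7 and a maximum of 73. The label of large-vessel endothelium was thus met by Cd34 and crossed by Clec4g, while Vwf was set by the rule, and the cells are called Vwf-positive cells.

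Clec4g was also counted in cells that should lack it, where free RNA can give its UMIs. At least 3 UMIs of Clec4g were found in 160 of 196 Vwf-positive cells, or 81.6% (75.5% to 86.8%), at a median depth of 5731.5 UMIs per cell. Of 45 barcodes with cholangiocyte or fibroblast markers and no UMI of Pecam1 or Cdh5, 5 had as many, or 11.1% (3.71% to 24.1%). Their median depth was 8683 UMIs. These background barcodes were chosen to lack Pecam1 and Cdh5, which can also select for little free endothelial RNA. The part of free RNA in the Clec4g counts was therefore not tested. The share among Vwf-positive cells was 47.9% when each cell was thinned to 2000 UMIs, which left out 2 shallower Vwf-positive cells. Thinned in the same way, 2.27% of the background barcodes had at least 3. Cells with the artery-side genes were not set apart from Clec4g. At least 3 Clec4g UMIs were counted in 94 of the 115 Vwf-positive cells with a UMI of Gja5, and in 117 of the 146 with a UMI of Nrg1.

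A droplet with more than 1 cell can also give both markers, and the part of such droplets was not tested. Scrublet found no split of its own in either library, so the highest scores were marked, from the score at the loading-based rate upwards. With tied scores included, 7.03% of Gimap5sph/sph cells were marked at a rate of 6.92%, and 6.21% of Gimap5sph/+ cells at a rate of 5.38%. In Gimap5sph/+ these were 31 of 196 Vwf-positive cells (15.8%) and 325 of 5589 Clec4g-positive cells (5.81%), at medians of 5731.5 UMIs in Vwf-positive and 4617 UMIs in Clec4g-positive cells. At least 3 UMIs of 16 markers of other liver cells were found in 13 Vwf-positive cells (6.63%) and 296 Clec4g-positive cells (5.30%). Without the doublet-marked cells, 78.2% of Vwf-positive cells had at least 3 Clec4g UMIs, and 81.4% did without the cells that carried other-type markers.

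**Figure D1:**
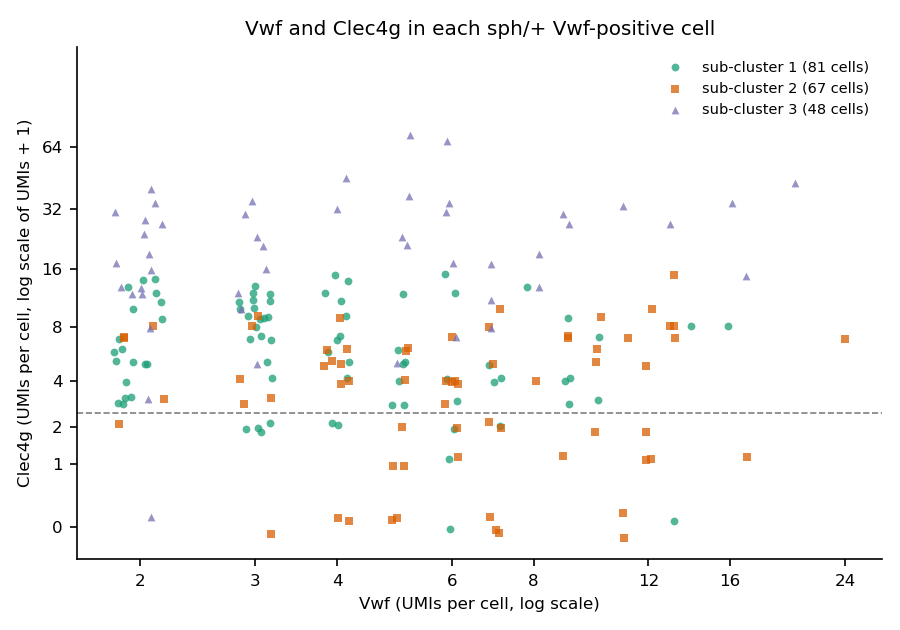
UMIs of Vwf (horizontal, log scale) and of Clec4g (vertical, log scale of UMIs plus 1) in each of the 196 Gimap5sph/+ Vwf-positive cells, jittered, with colour and shape giving the 3 sub-clusters described further on. The 160 cells above the dashed line have 3 or more UMIs of Clec4g, and they are found along the whole range of Vwf.

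The limit on Vwf cut through a gradient. Just inside it, the 40 cells with 2 UMIs had Cd34 at 95.6 CPM, Gja5 at 75.7 CPM and Clec4g at 1840 CPM. Just outside it, the 125 cells with 1 UMI that met the other limits had Cd34 at 30.3 CPM, Gja5 at 61.9 CPM and Clec4g at 2903 CPM. Of the 257 Gimap5sph/+ cells past the quality limits with at least 2 Vwf UMIs, 59 went out by Rspo3, a Wnt amplifier of central vein endothelium, 2 by the cycling genes and 0 by Pecam1 and Cdh5.

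Across the transcriptome, 7160 genes reached 20 CPM in at least 1 of the groups. Of these, 333 were at least 2-fold higher in Vwf-positive than in Clec4g-positive cells, which is 4.65% of the genes measured, and 281 were at least 2-fold lower, which is 3.92%. The counts of list members in this comparison are to be read beside these 2 shares. The median over all measured genes was -0.01 on the log2 scale, on which 1 CPM was added to each level. Since the rule chose both groups from these counts, the values describe the cells and test nothing. The lower side depended on which cells were kept. Without the doublet-marked cells 477 genes were lower. In the 36 cells with at most 2 Clec4g UMIs both sides rose, to 919 higher and 1149 lower. Those 36 cells held only 174737 UMIs, against 1282527 in all Vwf-positive cells, so their levels rest on fewer counts. The part of counting error in this rise was not tested.

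Among the highest genes against Clec4g-positive cells were genes of arteries and vessel walls. Nrg1, encoding the growth factor neuregulin 1, was at 429.6 CPM (394.5 to 467) in Vwf-positive cells, against 1.22 CPM (0.848 to 1.69) in Clec4g-positive cells, a ratio of 353 (251 to 512). It had a UMI in 146 of 196 Vwf-positive cells, or 74.5%, against 25 of 5589 Clec4g-positive cells. Gja5, the gap junction protein connexin 40 of arteries, was at 243 CPM (217 to 272) in Vwf-positive cells, against 1.18 CPM (0.819 to 1.65) in Clec4g-positive cells, a ratio of 206 (144 to 303). In the cholangiocyte and fibroblast barcodes used as background, Gja5 had a UMI in 0 of 45 cells, which allows a share of up to 7.87%, and Nrg1 in 2. The 2 genes were close to absent from the Clec4g-positive cells, which lack Vwf by definition. They were widespread among Vwf-positive cells, most of which also carried Clec4g UMIs. After thinning to 2000 UMIs, Nrg1 had a UMI in 49.0% of Vwf-positive cells and 0.202% of Clec4g-positive cells, leaving out 2 Vwf-positive and 135 Clec4g-positive cells, and Gja5 in 37.6% of Vwf-positive cells and 0.128% of Clec4g-positive cells.

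Among the other genes with the largest ratios were surface proteins and enzymes. Cyp1a1, an enzyme induced through the aryl hydrocarbon receptor, was at 249 CPM in Vwf-positive cells, against 1.22 CPM in Clec4g-positive cells. Sdc1, the heparan sulfate proteoglycan syndecan 1, was at 302.5 CPM in Vwf-positive cells, against 2.71 CPM in Clec4g-positive cells. Atp13a3, a polyamine transporter, was at 495 CPM in Vwf-positive cells, against 6.36 CPM in Clec4g-positive cells. The 3 genes had log2 values of 6.82, 6.35 and 6.07 in this order. Npr3, the clearance receptor of natriuretic peptides, was at 138 CPM in Vwf-positive cells, against 1.08 CPM in Clec4g-positive cells. Cmklr1, a chemerin receptor, was at 119 CPM in Vwf-positive cells, against 0.730 CPM in Clec4g-positive cells. Cd200, a surface protein that restrains myeloid cells, was at 116 CPM in Vwf-positive cells, against 1.01 CPM in Clec4g-positive cells. Thsd7a, a thrombospondin-repeat protein, was at 63.9 CPM in Vwf-positive cells, against 0.348 CPM in Clec4g-positive cells. Nts, the neuropeptide neurotensin, also ranked among the highest at a log2 value of 5.90, but 81 of its 83 UMIs lay in 1 cell, and its log2 value was -0.11 without the cells that carried other-type markers.

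**Figure D2:**
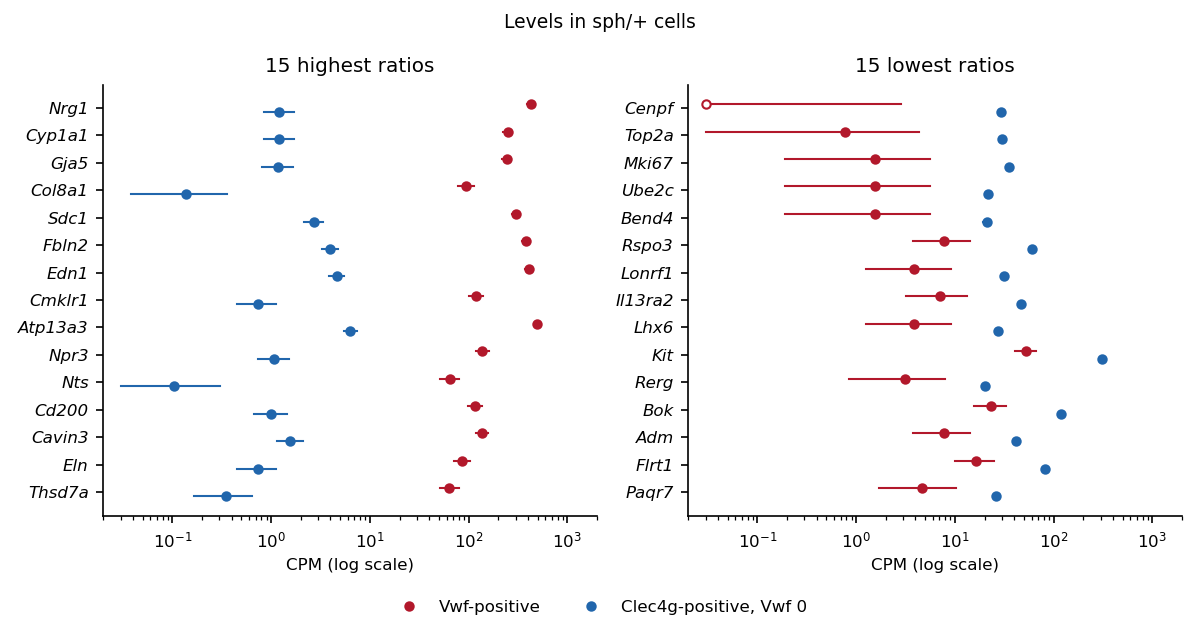
Levels of the highest and lowest genes in CPM on a log axis, with Vwf-positive cells of Gimap5sph/+ in red, Clec4g-positive cells in blue and bars giving 95% counting intervals. The open circle marks Cenpf, with 0 UMIs in Vwf-positive cells, drawn at the low end of the axis. Nrg1 is at 429.6 CPM in Vwf-positive cells and 1.22 CPM in Clec4g-positive cells, whereas Kit is at 53.0 CPM in Vwf-positive cells and 308 CPM in Clec4g-positive cells.

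Genes of arteries were higher as a list, with 10 of 17 measured members at least 2-fold higher, 2 lower and a median log2 value of 1.74. Bmx, a cytoplasmic tyrosine kinase of arterial endothelium, was at 28.8 CPM in Vwf-positive cells, against 0.139 CPM in Clec4g-positive cells. Mgp, the matrix protein that inhibits calcification, belongs to the vessel wall matrix list rather than the arterial one. It was at 225 CPM in Vwf-positive cells, against 4.28 CPM in Clec4g-positive cells, with 65 of its 288 UMIs in 1 cell. Sox17, a transcription factor of arterial identity, was at 323 CPM in Vwf-positive cells, against 95.8 CPM in Clec4g-positive cells. The smaller differences were those of genes that Clec4g-positive cells also expressed. Gja4, connexin 37, was at 626 CPM in Vwf-positive cells, against 287 CPM in Clec4g-positive cells, and the arterial ligand Efnb2 at 217 CPM in Vwf-positive cells, against 128 CPM in Clec4g-positive cells. Notch pathway genes had 4 of 9 members higher and 1 lower, led by the ligand Jag1 at 181 CPM in Vwf-positive cells, against 13.6 CPM in Clec4g-positive cells. Hey1, a target of Notch, was at 23.4 CPM in Vwf-positive cells, against 3.09 CPM in Clec4g-positive cells.

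Against 4.65% higher and 3.92% lower over all measured genes, 5 of the 14 portal-side genes were at least 2-fold higher and 1 was lower. Their median was 0.77, and they did not move as 1 block. Adgrg6 and Lrg1 had the largest differences of the list, and both were higher. Adgrg6 had a UMI in 176 Vwf-positive cells, of which 145 had at least 3 Clec4g UMIs. Efnb1, a membrane ligand of Eph receptors, was at 1204 CPM in Vwf-positive cells, against 376.5 CPM in Clec4g-positive cells. Ntn4, a netrin of basement membranes, was at 782 CPM in Vwf-positive cells, against 318 CPM in Clec4g-positive cells. Ltbp4, which holds latent TGF-beta in the matrix, was at 997 CPM in Vwf-positive cells, against 580 CPM in Clec4g-positive cells. The scavenger receptor Msr1 was at 352 CPM in Vwf-positive cells, against 341 CPM in Clec4g-positive cells. Adam23, a membrane disintegrin without protease activity, was the lower member, at 348.5 CPM in Vwf-positive cells, against 1018 CPM in Clec4g-positive cells.

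Of the 14 measured venous genes, 5 were higher and 1 was lower, with a median of 0.53. The shares over all measured genes were 4.65% higher and 3.92% lower. Selp, the adhesion receptor P-selectin that is stored with von Willebrand factor, was at 33.5 CPM in Vwf-positive cells, against 6.22 CPM in Clec4g-positive cells. Nr2f2, a transcription factor of venous identity, was at 870 CPM in Vwf-positive cells, against 705 CPM in Clec4g-positive cells. Of the 14 central vein genes, which include Rspo3, 0 were higher and 6 lower, and the median was -0.82. Wnt2, a ligand made by central vein and nearby sinusoidal endothelium, was at 83.4 CPM in Vwf-positive cells, against 386 CPM in Clec4g-positive cells. Kit, the stem cell factor receptor, was at 53.0 CPM in Vwf-positive cells, against 308 CPM in Clec4g-positive cells. The limit of 2 Rspo3 UMIs removed cells with central vein genes from the Vwf-positive group only. Among the 15 genes of lowest ratio outside the cell cycle were also Bok, a BCL2 family protein, at 23.4 CPM in Vwf-positive cells, against 120.4 CPM in Clec4g-positive cells, and Il13ra2, the decoy receptor of interleukin 13, at 7.02 CPM in Vwf-positive cells, against 46.7 CPM in Clec4g-positive cells. Bend4, Lonrf1, Rerg, Flrt1 and Paqr7 were also among them, with log2 values of -3.11, -2.71, -2.38, -2.26 and -2.26 in this order.

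The cells which that limit removed show what it took away. They were 59 Gimap5sph/+ cells with at least 2 Vwf and more than 2 Rspo3 UMIs. Wnt2 was at 83.4 CPM in Vwf-positive cells and 825 CPM in the removed cells, and Kit at 53.0 CPM in Vwf-positive cells and 223 CPM in the removed cells. Lhx6, a LIM homeodomain transcription factor, was at 3.90 CPM in Vwf-positive cells and 188 CPM in the removed cells. The artery-side genes ran the other way. Gja5 was at 243 CPM and Npr3 at 138 CPM in Vwf-positive cells, and both had 0 UMIs in the removed cells, which allows at most 8.77 CPM each. Nrg1 was at 429.6 CPM in Vwf-positive cells and 4.8 CPM in the removed cells. Several large-vessel genes were found in both sets. Edn1, encoding the vasoconstrictor endothelin 1, was at 410 CPM in Vwf-positive cells and 471 CPM in the removed cells, and Fbln2 at 380 CPM in Vwf-positive cells and 406.5 CPM in the removed cells. Clec4g was at 1527 CPM in Vwf-positive cells and 1769 CPM in the removed cells, of which 38 (64.4%) had at least 3 UMIs.

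Endothelin signalling and vascular tone gave some of the most abundant differences. Ednrb, the endothelin B receptor, was at 1803 CPM (1731 to 1878) in Vwf-positive cells, against 81.8 CPM in Clec4g-positive cells, a ratio of 22.0 (20.8 to 23.3). It had a UMI in 176 of 196 Vwf-positive cells and 718 of 5589 Clec4g-positive cells. Edn1, its ligand, was at 410 CPM in Vwf-positive cells, against 4.62 CPM in Clec4g-positive cells, and had a UMI in 104 of 196 Vwf-positive cells. Ligand and receptor were thus both higher in the same group of cells. Of the vasoactive list as a whole, 5 of 13 members were higher and 1 was lower, with a median of 0.05, where 4.65% of all measured genes were higher and 3.92% lower. Adm, the vasodilator adrenomedullin, was at 7.80 CPM in Vwf-positive cells, against 42.1 CPM in Clec4g-positive cells.

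Genes of continuous endothelium had 7 of 13 measured members higher, 0 lower and a median of 1.65. Ly6a, a surface protein also known as Sca-1, was at 6238 CPM in Vwf-positive cells, against 844 CPM in Clec4g-positive cells. Ly6c1, a related protein of continuous capillaries and arteries, was at 145 CPM in Vwf-positive cells, against 2.33 CPM in Clec4g-positive cells. Plvap, which forms diaphragms of caveolae and fenestrae, was at 696 CPM in Vwf-positive cells, against 170 CPM in Clec4g-positive cells. Not all caveolar genes followed. The caveolae list had 4 of 8 members higher, among them Cavin3 at 137 CPM in Vwf-positive cells, against 1.57 CPM in Clec4g-positive cells, whereas Cav1, the caveolin coat protein, was at 42.1 CPM in Vwf-positive cells, against 40.5 CPM in Clec4g-positive cells. The log2 value of Cav1 ran between -0.58 and 1.48 over the alternatives.

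Of the 12 measured genes of elastic fibres and the vessel wall matrix, 8 were higher and 1 was lower. Their median of 4.15 was the highest among the lists with 10 or more measured members. Eln, the elastic protein of artery walls, was at 85.8 CPM in Vwf-positive cells, against 0.730 CPM in Clec4g-positive cells, and had a UMI in 62 of 196 Vwf-positive cells. Fbln2, a fibulin that binds elastic fibres, was at 380 CPM in Vwf-positive cells, against 4.0 CPM in Clec4g-positive cells. Fbln5, which elastic fibre assembly needs, was at 36.6 CPM in Vwf-positive cells, against 0.487 CPM in Clec4g-positive cells. The collagen gene Col8a1 was at 95.1 CPM in Vwf-positive cells, against 0.139 CPM in Clec4g-positive cells. The basement membrane list stood apart less, with 1 of 11 higher, 0 lower and a median of 0.14.

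The machinery around von Willebrand factor was mixed. Over all measured genes, 4.65% were higher and 3.92% lower. Of the Weibel-Palade body genes 5 of 13, Vwf itself included, were higher and 2 lower, with a median of -0.17. Of the coagulation genes 3 of 10, again with Vwf, were higher and 1 lower, with a median of 0.12. Both medians changed sign under other settings. Plat, the tissue plasminogen activator, was at 67.8 CPM in Vwf-positive cells, against 1.32 CPM in Clec4g-positive cells. Thbd, the anticoagulant thrombomodulin, was at 264 CPM in Vwf-positive cells, against 163 CPM in Clec4g-positive cells. Leukocyte adhesion genes had 1 of 10 higher and shear-response genes 1 of 10 higher, with 0 lower in both. In lists this short such counts cannot be told apart from the shares over all genes.

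Sinusoidal genes, Clec4g included, were lower as a list, with 17 of 23 lower and 0 higher and a median of -1.43, yet remained well counted. Stab2, the hyaluronan-clearing receptor stabilin 2, was at 426.5 CPM in Vwf-positive cells, against 1377 CPM in Clec4g-positive cells. Fcgr2b, the inhibitory Fc receptor of sinusoids, was at 709.5 CPM in Vwf-positive cells, against 2326 CPM in Clec4g-positive cells. Dnase1l3, a secreted nuclease, was at 1184 CPM in Vwf-positive cells, against 3181 CPM in Clec4g-positive cells. In the pooled counts the 3 genes were thus 3.23-, 3.28- and 2.69-fold lower, and Stab2 had a UMI in 129 of 196 Vwf-positive cells. The pooled level leaned on the third sub-cluster described further on. Its 48 cells, 30 of them doublet-marked, held 9127 of the 14661 UMIs of the sinusoidal list. Over the alternatives the log2 value of Stab2 ran between -3.81 and -1.15. Bmp2, the ligand that sets hepatocyte hepcidin, was at 616 CPM in Vwf-positive cells, against 2083 CPM in Clec4g-positive cells. Clec1b, a lectin that binds podoplanin, was at 90.4 CPM in Vwf-positive cells, against 353 CPM in Clec4g-positive cells. Gata4, a master transcription factor of sinusoidal endothelium, was at 210.5 CPM in Vwf-positive cells, against 275 CPM in Clec4g-positive cells. Summed over the list, sinusoidal genes were at 11431 CPM in Vwf-positive cells, against 29167 CPM in Clec4g-positive cells, and continuous-endothelium genes at 20223 CPM in Vwf-positive cells, against 8663 CPM in Clec4g-positive cells.

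The VEGF and angiopoietin genes had 1 of 10 higher and 5 lower. Vegfc, a ligand of lymphatic and venous growth, was at 348 CPM in Vwf-positive cells, against 14.8 CPM in Clec4g-positive cells, whereas Kdr, the main VEGF receptor of blood vessels, was at 1024 CPM in Vwf-positive cells, against 3035 CPM in Clec4g-positive cells. Prox1, the transcription factor that defines lymphatic endothelium, did not reach 20 CPM in either group, and of the 3 measured lymphatic genes 0 were higher and 2 lower. Scavenging and lysosomal genes had 2 of 22 higher and 8 lower, with a median of -0.42. The general endothelial genes, which include Pecam1 and Cdh5 of the rule, had 0 of 20 higher and 1 lower. Gimap genes had 0 of 6 past 2-fold in either direction. With 4.65% of all measured genes higher and 3.92% lower, a list of 6 would often give this count. Gimap5 was at 70.2 CPM (56.4 to 86.3) in Vwf-positive cells, against 106 CPM in Clec4g-positive cells. Antigen presentation genes had 2 of 15 higher and interferon-response genes 1 of 17 higher, with 0 lower in both. These small counts cannot be told apart from the shares over all genes either. Among endothelial transcription factors 4 of 22 were higher and 3 lower, and among BMP and TGF-beta genes 3 of 16 were higher and 1 lower. Junction genes had 3 of 14 higher and 1 lower.

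**Figure D3:**
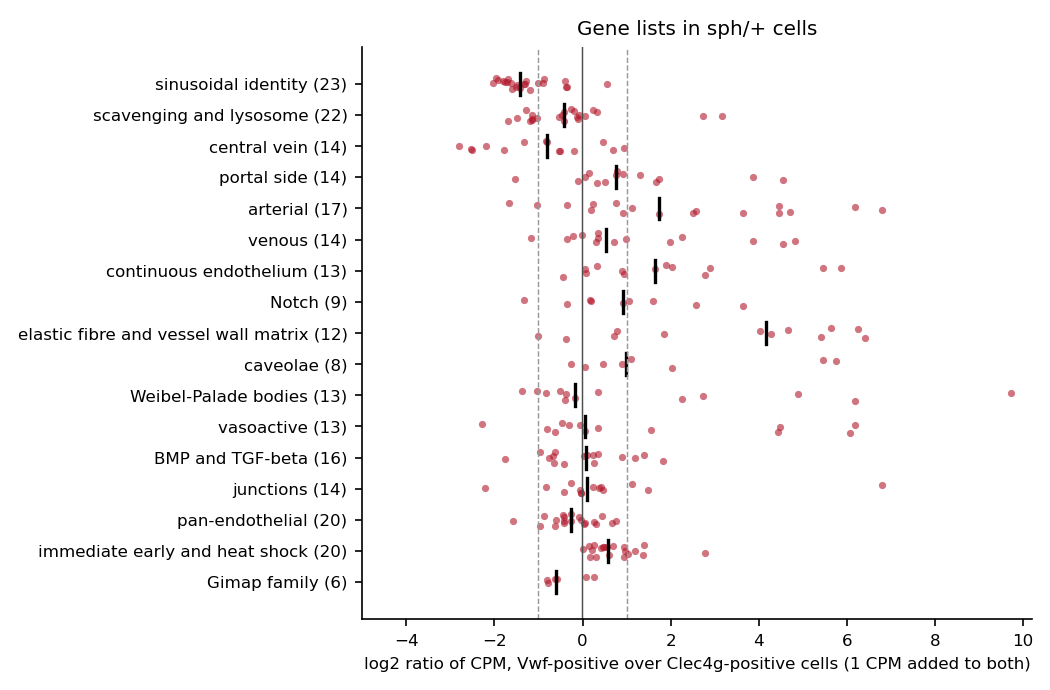
Log2 ratio of the level in Vwf-positive over Clec4g-positive Gimap5sph/+ cells, with 1 point per measured gene and 1 row per gene list (the number of measured members in brackets), black bars at list medians, a grey line at the median of all measured genes and dashed lines at 2-fold. Elastic fibre, arterial and continuous-endothelium lists lie to the right with medians of 4.15, 1.74 and 1.65, and the sinusoidal list lies to the left at -1.43.

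The signs of handling and of other cells moved with the groups in part. Immediate early and heat shock genes had 5 of 20 higher and 0 lower, and made up 0.86% of UMIs in Vwf-positive cells and 0.556% in Clec4g-positive cells. Ribosomal protein genes took 11.8% of UMIs in Vwf-positive cells and 8.15% in Clec4g-positive cells, and mitochondrial genes 4.96% in Vwf-positive cells and 6.19% in Clec4g-positive cells. Hepatocyte markers summed to 444 CPM in Vwf-positive cells and 331 CPM in Clec4g-positive cells, and cholangiocyte markers to 298 CPM in Vwf-positive cells and 364 CPM in Clec4g-positive cells. Of 8 measured hepatocyte markers 1 was higher, and of 3 cholangiocyte markers 0 were. These 2 counts cannot be told apart from the 4.65% over all measured genes. Stellate and fibroblast markers summed to 398 CPM in Vwf-positive cells and 124 CPM in Clec4g-positive cells, and 222 UMIs of Dcn and every UMI of Col1a1, Col1a2 and Gas1 in the Vwf-positive cells came from 1 cell. Mesothelial markers were at 79.5 CPM in Vwf-positive cells and 19.8 CPM in Clec4g-positive cells. Kupffer cell markers were at 46.8 CPM in Vwf-positive cells and 48.7 CPM in Clec4g-positive cells, and platelet markers at 25.7 CPM in Vwf-positive cells and 37.5 CPM in Clec4g-positive cells. Leukocyte and erythroid markers had 0 UMIs in Vwf-positive cells. Of the stellate and fibroblast markers 4 of 5 were higher, and the 1 measured mesothelial marker, Gpm6a, had a log2 value of 2.55. The part of these values in the results was not tested. Of 7 measured genes of the cell cycle, 5 were lower. The rule limits Mki67, Top2a and Cenpf among them, and that limit removed 2 cells.

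Within the Vwf-positive cells, Cd34 and Stab2 ran in opposite directions along the counts of both Vwf and Clec4g. From 2 through 3 to 5 up to 6 or more Vwf UMIs, held by 40, 80 and 76 cells, Cd34 was at 95.6, 103 and 241 CPM, and Gja5 at 75.7, 224 and 341 CPM. Stab2 was at 549.5, 449 and 347 CPM in the same classes. Ednrb, at 1875, 1759 and 1812 CPM, showed no such order, and its counting intervals overlapped. Along Clec4g, in the classes of 0, 1 or 2, 3 to 9, and 10 or more UMIs, Cd34 was at 543, 281.5, 147 and 98.9 CPM, and Stab2 at 14.7, 150, 199 and 756 CPM. Cells without Clec4g were thus the richest in Cd34 and nearly without Stab2. Ednrb took neither order, with 1100, 1951, 2515 and 1155 CPM along Clec4g. The lists as a whole did not all follow Cd34. Arterial genes summed to 4412 CPM in cells with at most 2 Clec4g UMIs and 4987 CPM in those with 3 or more, and portal-side genes to 6232 and 7849 CPM in these classes. Genes of elastic fibres and the vessel wall matrix summed to 6112 CPM with at most 2 and 2658 CPM with 3 or more. The class without Clec4g held 13 cells, including the single cell with most of the Dcn UMIs. That cell gave 17606 of the 68151 UMIs of the class. Its part in the Cd34 and vessel wall matrix values was not tested. Classes by raw UMIs also differ in depth.

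**Figure D4:**
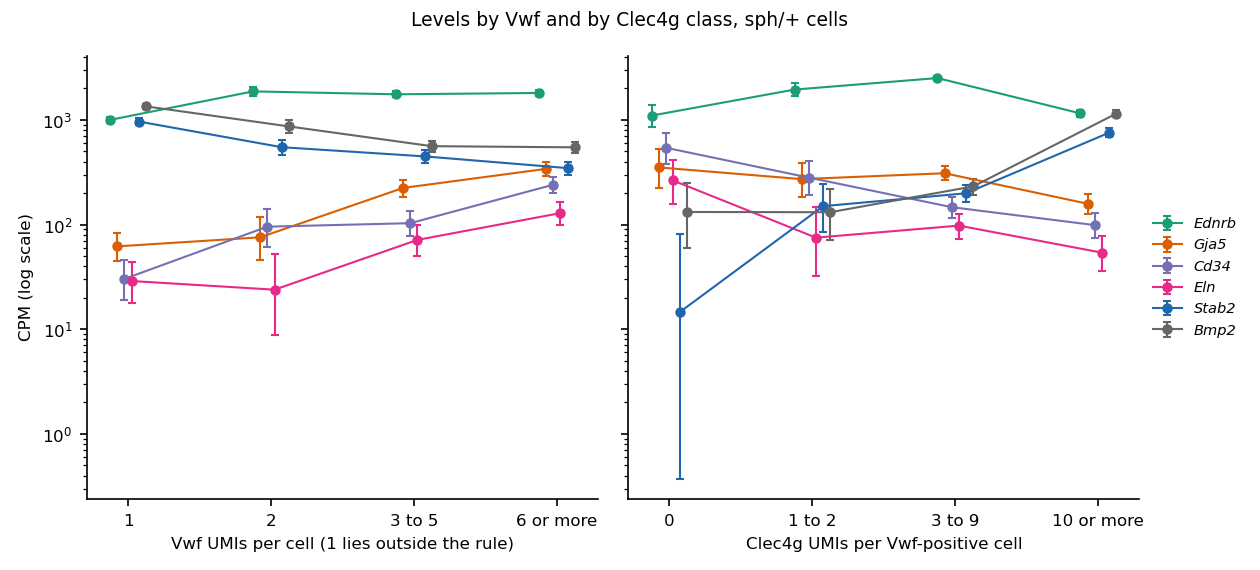
Levels in CPM (log scale) of 6 genes in Gimap5sph/+ cells by the UMIs of Vwf per cell (left, with the cells of 1 UMI that lie outside the rule) and by the UMIs of Clec4g per Vwf-positive cell (right); bars are 95% counting intervals. Stab2 and Bmp2 are lower and Cd34, Gja5 and Eln higher at 6 or more Vwf UMIs than at 1, and Stab2 is at 14.7 CPM in cells without Clec4g and 756 CPM in those with 10 or more UMIs.

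Leiden clustering divided the 196 cells into 3 sub-clusters, whose leading genes define them and are given as a description. The first held 81 cells at a median of 5114 UMIs and had Ednrb at 2514 CPM, Efnb1 at 1568 CPM and Ly6a at 7856 CPM. Its highest ratios came from single cells, as for Spp1, the phosphoprotein osteopontin, with 99.2% of its UMIs in 1 cell. Npr3 was at 8.82 CPM, Mgp at 19.8 CPM and Selp at 4.41 CPM in it, while genes of elastic fibres and the vessel wall matrix summed to 2540 CPM in the first, 4062 CPM in the second and 2961 CPM in the third sub-cluster. At least 3 Clec4g UMIs were found in 86.4% of its cells.

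The second sub-cluster, of 67 cells at a median of 5571 UMIs, had more Npr3, Gja5, Eln, Mgp and Fbln2 than both others. Npr3 was at 369 CPM, against 44.9 CPM in the other Vwf-positive cells, Fbln5 at 117 CPM against 4.38 CPM, and Cyp1a1 at 626 CPM against 96.3 CPM. Vwf was at 1283 CPM, Gja5 at 447 CPM, Cd34 at 260.3 CPM, Eln at 174 CPM and Mgp at 464 CPM in this sub-cluster. Clec4g was at its lowest of the sub-clusters, 778 CPM, with at least 3 UMIs in 64.2% of cells, and Stab2 was at 86.8 CPM. The doublet score marked 0 of its cells. The part of doublets in the shared markers was not tested beyond these values.

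The third sub-cluster, of 48 cells at a median of 8539.5 UMIs, had among its leading genes several from single cells. Of the 2 that led it, Lgals1 had 65.9% and Dcn 91.7% of its UMIs in 1 cell, and Gas1, Igfbp6 and Col3a1 also came mostly from 1 cell. Sinusoidal genes were spread over more of its cells. Clec1b was at 232 CPM there, against 10.9 CPM in the other Vwf-positive cells, Wnt2 at 213 CPM against 10.9 CPM, and Bmp2 at 1349 CPM against 206 CPM. Sinusoidal genes summed to 19830 CPM in it, against 8313 CPM in the first and 4784 CPM in the second sub-cluster. It held 30 of the 31 doublet-marked Vwf-positive cells, 62.5% of its own. Without this sub-cluster, 585 genes instead of 281 were at least 2-fold lower in Vwf-positive than in Clec4g-positive cells, and 417 instead of 333 were higher.

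The homozygote gave Vwf-positive cells by the same limits in a larger share. They were 494 of 6599 Gimap5sph/sph cells, or 7.49% (6.86% to 8.15%), against 196 of 6167 Gimap5sph/+ cells, or 3.18% (2.75% to 3.65%). Each share comes from 1 mouse and 1 CD31 sort, and the effects of genotype, mouse, sort and library cannot be told apart. The limit of 2 UMIs makes the share depend on the level of Vwf, which was at 1714 CPM in Gimap5sph/sph and 848 CPM in Gimap5sph/+ Vwf-positive cells. Median depth per passing cell was 4100 UMIs in Gimap5sph/sph and 4653 UMIs in Gimap5sph/+.

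Of 7457 genes that reached 20 CPM in Vwf-positive cells of either genotype, 672 were at least 2-fold higher in Gimap5sph/sph, which is 9.01%, and 546 at least 2-fold lower, which is 7.32%. The median over all of them was -0.06 on the log2 scale. The Gimap5 RNA itself was at 78.1 CPM in Gimap5sph/sph and 70.2 CPM in Gimap5sph/+ Vwf-positive cells, a ratio of 1.11 (0.866 to 1.44). The rule did not use this contrast except through its marker limits, but with 1 mouse per genotype the values are still a description.

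Clec4g divided the Vwf-positive cells of the 2 mice sharply. At least 3 UMIs were found in 36 of 494 Gimap5sph/sph Vwf-positive cells, or 7.29% (5.16% to 9.95%), against 160 of 196 Gimap5sph/+ cells, or 81.6% (75.5% to 86.8%). Thinned to 2000 UMIs, which left out 17 Gimap5sph/sph and 2 Gimap5sph/+ cells, the shares were 2.73% in Gimap5sph/sph and 47.9% in Gimap5sph/+. The level was 137 CPM in Gimap5sph/sph and 1527 CPM in Gimap5sph/+ Vwf-positive cells, 11.2-fold lower. Of the 23 sinusoidal genes, 19 were lower and 0 higher, with a median of -2.79. Fcgr2b was at 2.55 CPM in Gimap5sph/sph and 709.5 CPM in Gimap5sph/+ Vwf-positive cells, 278-fold lower (134 to 693), and Dnase1l3 at 28.5 CPM in Gimap5sph/sph and 1184 CPM in Gimap5sph/+ Vwf-positive cells. Enpep, the aminopeptidase A that cleaves angiotensin II, had 0 UMIs in Gimap5sph/sph and was at least 32.1-fold lower, against a floor of 3 UMIs over the group. Slc39a8, a zinc and manganese transporter, Aass, an enzyme of lysine breakdown, the transcription factor Twist1 and the membrane protein gene Tm4sf4 were also among the 8 lowest once markers of other cell types, such as Spp1, were left out. Slc39a8 was at 1.09 CPM in Gimap5sph/sph and 79.5 CPM in Gimap5sph/+, Aass at 1.09 CPM in Gimap5sph/sph and 73.3 CPM in Gimap5sph/+, and the other two had 0 UMIs in Gimap5sph/sph and 46 in Gimap5sph/+, of which 43 of Tm4sf4 lay in 1 cell. Gas1 was the remaining one, with 0 UMIs in Gimap5sph/sph and 56 in Gimap5sph/+, all in 1 cell. Aass was also low, at 0.657 CPM, in the other 6105 Gimap5sph/sph cells, so its low level was not particular to Vwf-positive cells. Whether this held for the other sinusoidal genes is not described here. The doublet score marked 46 of 494 cells (9.31%) in Gimap5sph/sph and 31 of 196 (15.8%) in Gimap5sph/+.

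The large-vessel genes that marked the Gimap5sph/+ cells did not move together between genotypes. Eln was at 203 CPM in Gimap5sph/sph and 85.8 CPM in Gimap5sph/+ Vwf-positive cells, and Gja5 at 327 CPM in Gimap5sph/sph and 243 CPM in Gimap5sph/+. Edn1 was at 428 CPM in Gimap5sph/sph and 410 CPM in Gimap5sph/+, a ratio of 1.04 (0.941 to 1.16). Nrg1 was at 87.2 CPM in Gimap5sph/sph and 429.6 CPM in Gimap5sph/+, and Sdc1 at 34.3 CPM in Gimap5sph/sph and 302.5 CPM in Gimap5sph/+. Eln, Gja5 and Edn1 were thus level or higher in the homozygote, while Nrg1 and Sdc1 were lower. Ednrb was at 752.5 CPM in Gimap5sph/sph and 1803 CPM in Gimap5sph/+, Cyp1a1 at 21.9 CPM in Gimap5sph/sph and 249 CPM in Gimap5sph/+, and Npr3 at 12.8 CPM in Gimap5sph/sph and 138 CPM in Gimap5sph/+. The arterial list had 10 of 22 higher and 1 lower, with a median of 0.46, and the portal-side list 0 of 14 higher and 6 lower, with a median of -0.79.

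Several genes of continuous capillaries and most basement membrane genes were higher in the homozygote. Cd34 was at 561 CPM in Gimap5sph/sph and 158 CPM in Gimap5sph/+ Vwf-positive cells, Cav1 at 538 CPM in Gimap5sph/sph and 42.1 CPM in Gimap5sph/+, and Ly6c1 at 2303 CPM in Gimap5sph/sph and 145 CPM in Gimap5sph/+. The continuous-endothelium list had 9 of 19 higher and 3 lower, with a median of 0.75. Col4a1, a chain of the collagen of basement membranes, was at 2323 CPM in Gimap5sph/sph and 465.5 CPM in Gimap5sph/+. The basement membrane list had 10 of 15 higher and 0 lower, with a median of 1.84, where in Gimap5sph/+ Vwf-positive cells it had stood near the Clec4g-positive cells. Apln, the ligand apelin of sprouting endothelium, was at 212 CPM in Gimap5sph/sph and had 0 UMIs in Gimap5sph/+, at least 90.8-fold higher. Sparcl1, a matricellular protein, was at 1089 CPM in Gimap5sph/sph and 4.68 CPM in Gimap5sph/+.

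Genes of immune signalling were mostly higher in the homozygote. Antigen presentation genes had 15 of 18 higher and 0 lower, with a median of 1.74, and interferon-response genes 12 of 19 higher and 0 lower, with a median of 1.56. Cd74, the invariant chain of MHC class II, was at 2653 CPM in Gimap5sph/sph and 46.0 CPM in Gimap5sph/+ Vwf-positive cells, where 27 of its 59 UMIs lay in 1 cell. Cxcl9, a chemokine induced by interferon gamma, was at 1580 CPM in Gimap5sph/sph and 80.3 CPM in Gimap5sph/+, and Cxcl12, a chemokine that holds progenitor cells, at 734 CPM in Gimap5sph/sph and 13.3 CPM in Gimap5sph/+. Ubd, encoding the ubiquitin-like protein FAT10, ranked first by ratio once haemoglobin genes and markers of other cell types were left out, with 1233 UMIs in Gimap5sph/sph and 0 in Gimap5sph/+, at least 192-fold higher. Tnfrsf9, the costimulatory receptor 4-1BB, was at 419.5 CPM in Gimap5sph/sph and had 0 UMIs in Gimap5sph/+, at least 179-fold higher. Sprr2b, a small proline-rich protein of epithelia, had 616 UMIs in Gimap5sph/sph and 1 in Gimap5sph/+, a ratio of 288 (51.5 to 11400.9). H2-DMb1, which loads peptides on MHC class II, had 492 UMIs in Gimap5sph/sph and 1 in Gimap5sph/+, a ratio of 230.2 (41.1 to 9110). Rgcc, a regulator of cell cycle, and Meox1, a homeodomain transcription factor, were at 129.5 and 93.0 CPM in Gimap5sph/sph and had 0 UMIs in Gimap5sph/+, so that they were at least 55.4- and 39.8-fold higher. Leukocyte adhesion and chemokine genes had 11 of 15 higher and 3 lower. Red cell RNA also differed between the libraries, with erythroid genes at 3740 CPM in Gimap5sph/sph Vwf-positive cells and 0 UMIs in Gimap5sph/+, and its part in these values was not tested. Stellate and fibroblast markers, of which 0 of 4 were higher and 4 lower, summed to 127 CPM in Gimap5sph/sph and 398 CPM in Gimap5sph/+, and cholangiocyte markers, 0 of 2 higher and 2 lower, to 18.2 CPM in Gimap5sph/sph and 298 CPM in Gimap5sph/+. These sums leaned on single cells. In Gimap5sph/+, 246 of 255 Spp1 UMIs lay in 1 cell, and 2 of 196 cells had 3 or more cholangiocyte marker UMIs. Of the Dcn UMIs, 222 of 279 in Gimap5sph/+ and 164 of 284 in Gimap5sph/sph lay in 1 cell. Mesothelial markers summed to 154 CPM in Gimap5sph/sph and 79.5 CPM in Gimap5sph/+, platelet markers to 133 CPM in Gimap5sph/sph and 25.7 CPM in Gimap5sph/+, and hepatocyte markers to 465 CPM in Gimap5sph/sph and 444 CPM in Gimap5sph/+. Their part was not tested either. In 1 Gimap5sph/sph cell lay 2135 of the 5609 UMIs of the haemoglobin gene Hbb-bs. Among the remaining lists, coagulation genes had 6 of 12 higher and 2 lower, Weibel-Palade body genes 4 of 12 higher and 1 lower, venous genes 6 of 18 higher and 4 lower, and scavenging and lysosomal genes 0 of 22 higher and 9 lower. Central vein genes had 3 of 14 higher and 4 lower, elastic fibre and vessel wall genes 4 of 14 higher and 3 lower, and lymphatic genes 3 of 6 higher and 2 lower. General endothelial genes had 2 of 20 higher and 3 lower, and Gimap genes again 0 of 6 in either direction. Over all measured genes 9.01% were higher and 7.32% lower, and 0 of 6 cannot be told apart from these shares.

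**Figure D5:**
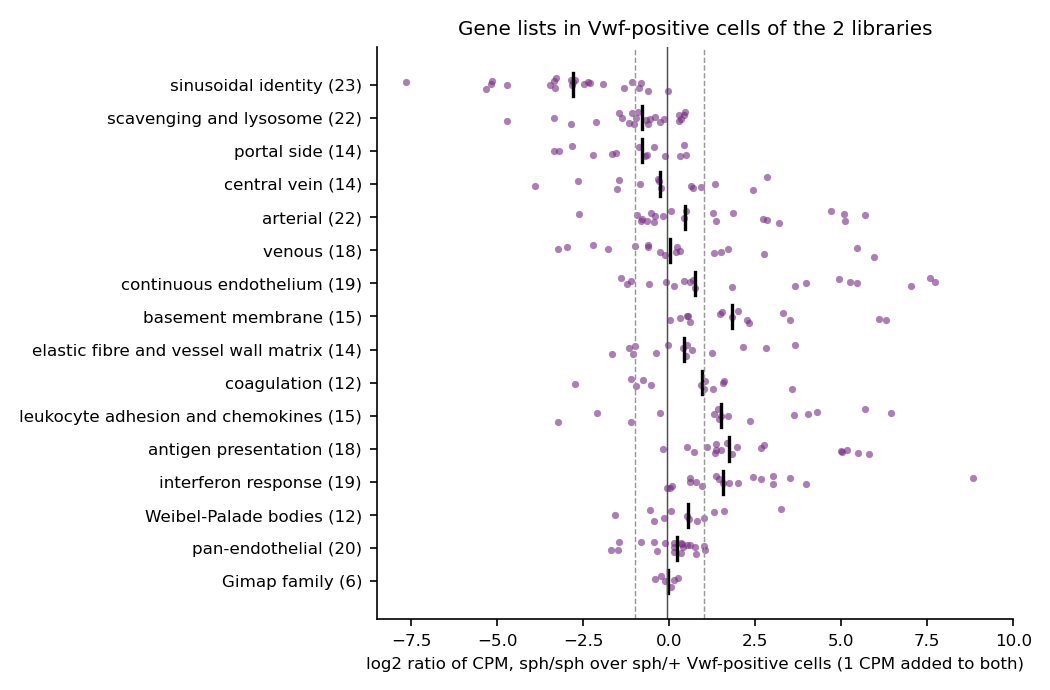
Log2 ratio of the level in Gimap5sph/sph over Gimap5sph/+ Vwf-positive cells, with 1 point per measured gene and 1 row per gene list (the number of measured members in brackets), black bars at list medians, a grey line at the median of all measured genes and dashed lines at 2-fold. Basement membrane, antigen presentation and interferon lists lie to the right with medians of 1.84, 1.74 and 1.56, and the sinusoidal list lies to the left at -2.79.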

How the data were processed

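Raw UMI counts per gene and barcode were deposited by the authors as 1 matrix per mouse with 31053 genes. Reads were processed with Cell Ranger 3.0 on mm10, per the submitters' processing notes. Most barcodes occurred with suffixes 1 and 2. What the suffixes stand for is not given in the sources used here, and taking only suffix 2 was chosen after seeing the data. Counts were summed over the cells of each group and divided by the group's UMIs to give CPM. Log2 ratios used a prior of 1 CPM. A gene was measured at 20 CPM in either group and counted as higher or lower at 2-fold. The genes named were the 15 highest and 15 lowest of the Vwf-positive contrast, the 8 highest and 8 lowest of the genotype contrast, in both leaving out markers of other cell types, genes of haemoglobin, immunoglobulins, ribosomes and mitochondria, Xist, Tsix and Y-linked genes, genes with no proper name, Vwf and Clec4g, then 20 fixed genes and up to 4 per list of 35 lists. Col4a1 and the genes describing the sub-clusters were picked after their values were seen. The members and lists were chosen with earlier results of these data known. Scrublet, run in scanpy 1.11.5 (Python 3.11.15, numpy 2.4.6, scipy 1.17.1), scored doublets, and marked cells were kept except in 1 alternative. Sub-clusters used igraph 0.11.9. The ratio calculation was tested on simulated data. Depth was 36105901 UMIs in Gimap5sph/sph and 33060506 UMIs in Gimap5sph/+, with 1 library each.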

Additional observations from a re-analysis of the deposited data

How the results depend on the processing

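Over 1749 alternative values of 141 results, 1424 stayed within the counting interval (counts of genes, within 1.5 times), 320 moved further and 5 of results past 2-fold lost or changed their sign. Counting results within 2-fold too, 71 values of 25 results had another sign, among them the Weibel-Palade and coagulation medians and Cav1. These alternatives changed 1 choice at a time. Settings that moved the counts of genes were as follows. With a prior of 10 CPM, 187 genes were lower in Vwf-positive cells and 358 lower in Gimap5sph/sph. With a floor of 50 CPM, 191 were higher in Vwf-positive cells, and 399 were higher and 317 lower in Gimap5sph/sph. With a floor of 5 CPM, 620 were higher and 477 lower in Vwf-positive cells, and 1142 higher and 947 lower in Gimap5sph/sph. With a limit of 1 Vwf UMI, 135 were lower in Vwf-positive cells and 87.2% of them had at least 3 Clec4g UMIs. Without doublet-marked cells 477 were lower, without the sub-cluster of highest UMIs 585, and after thinning 512, when 47.9% of Vwf-positive cells had at least 3 Clec4g UMIs. In members with at most 2 Clec4g UMIs, which held only 174737 UMIs, 919 were higher and 1149 lower. Counts from suffix 1, chosen after seeing the data, gave 307 higher and 275 lower in Vwf-positive cells, 657 higher and 540 lower in Gimap5sph/sph, and 78.4% with at least 3 Clec4g UMIs. The lymphatic list's median in Gimap5sph/sph, 1.76, became -0.64 at a floor of 50 CPM and -0.61 after thinning. Nts became -0.11 in Vwf-positive cells without other-type barcodes. Gas1 had a log2 value of 0 in Gimap5sph/sph with at least 4 Vwf UMIs and without other-type barcodes, since its 56 UMIs in Gimap5sph/+ were in 1 cell. The cause of the other changes was not tested. No paired analysis was possible because each genotype had 1 library. Levels near 1 CPM in 196 cells rest on few UMIs, and no value has a replicate.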
